A study of Mus musculus with 42 samples.

Results

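Expression of 8 nuclear receptor genes was examined in mouse bone-marrow-derived macrophages (BMDM), namely Pparg, Ppard, Rxra, Rara, Nr4a1, Nr3c1, Esrra and Vdr. They are nuclear receptors other than the oxysterol receptors (LXR) and the receptors of the circadian clock. The rule took the rows of the deposited count table whose Ensembl identifier maps to these symbols, which gave 8 of the 37310 genes of the table. All 8 passed the filter on low counts and were among the 11624 genes tested.

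The table held 42 RNA-seq libraries in 14 groups of 3. BMDM were labelled WT or KO for Irf5, an interferon regulatory transcription factor, and came from male mice bred to delete floxed Irf5 alleles with Cre under the Lyz2 promoter (LysM-Cre), or from WT littermates. The deletion was not seen in the gene counts of Irf5, so WT and KO stand here for the labels of the libraries. Cells grown in medium conditioned by L929 cells were sampled as Control at 0, 2 and 24 h, after palmitate (a saturated fatty acid) at 2 and 24 h, or after LPS (bacterial lipopolysaccharide) at 2 and 24 h. The study compared genotypes within each condition to find genes that depend on Irf5, and the same groups give the effect of each treatment and of time in culture. The sources used here do not say whether Control cells received the vehicle of palmitate, nor whether the 3 libraries of a group came from separate mice, so p-values measure the spread between these libraries, which may be technical. Libraries are numbered 1 to 3 within a group in column order, and a number only names a library.

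Nuclear receptors are transcription factors that bind DNA directly, and many are switched by small lipid-soluble ligands. RXR alpha, encoded by Rxra, is the obligate partner of the PPAR, retinoic acid and vitamin D receptors, whereas the glucocorticoid receptor acts mainly as a homodimer and NR4A1 can bind as a monomer without a known ligand. In macrophages PPAR gamma is known for genes of lipid uptake and alternative activation, and the glucocorticoid receptor for restraint of inflammatory genes.

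Total counts per library ranged from 2848793 to 7743442, with a median of 5625399. Levels are given as CPM, counts relative to the library size scaled by the trimmed mean of M values (TMM). Calls rest on edgeR's quasi-likelihood test with Benjamini-Hochberg adjustment over the genes tested, at a threshold of 0.05 for the adjusted p. Irf5 held 267 to 430 CPM in the libraries labelled KO and 210 to 389 CPM in those labelled WT, and the gene count does not separate the floxed part. It was called higher in the libraries labelled KO in 4 of 7 conditions, with log2 fold changes of 0.47 in Control 0 h (adjusted p = 9.12e-08), 0.26 in Control 2 h (0.0193), 0.31 in palmitate 24 h (0.00272) and 0.47 in LPS 24 h (1.55e-07), and was called lower in none. Lyz2, the gene into which Cre was inserted, was lower in KO in every condition, for example by 1.11 on the log2 scale at LPS 24 h (adjusted p = 1.14e-11). All 6 macrophage markers were detected, with a summed level of 12700 to 22900 CPM in WT and 9600 to 14000 CPM in KO. Lyz2 was the largest part of this sum. The 4 erythroid markers never exceeded 3 counts. Markers of fibroblasts and of granulocyte precursors also differed between genotypes and are given beside the genotype results. Tnf, a cytokine gene used to check LPS, rose by 4.71 on the log2 scale at 2 h of LPS, and Plin2, a lipid droplet coat gene used to check palmitate, rose by 2.01 at 24 h of palmitate.

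Promoter sequence is shown for Nr4a1, which of the 8 genes rose most at 2 h, and for Pparg, which fell most at 24 h of LPS. Each run is the 250 bases before a RefSeq transcript start on GRCm38.p6, plus strand, 5′ to 3′. In Nr4a1 (start at chromosome 15, window chr15:101266596-101266845) the capitals mark CGTCA, the reverse complement of TGACG, which is the core of the cAMP response element (CRE) bound by CREB.
Nr4a1: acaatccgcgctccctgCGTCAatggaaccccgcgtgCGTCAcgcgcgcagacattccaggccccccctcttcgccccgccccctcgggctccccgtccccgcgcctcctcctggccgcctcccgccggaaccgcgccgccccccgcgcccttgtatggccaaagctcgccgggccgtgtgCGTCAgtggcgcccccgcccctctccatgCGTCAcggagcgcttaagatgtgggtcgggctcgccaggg
The Nr4a1 window held 4 such cores, at -233, -213, -69 and -40 from the start (first base of each match). Of 32851 promoter windows of this length, 45 (0.137%) held at least 4, and 17.8% held at least 1. The full CRE, TGACGTCA, was also searched and was absent from this window. A share by number of matches was computed for the core alone.

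Pparg has 3 RefSeq starts, and the gene counts do not tell which was used. The capitals mark AGGTCA, the core motif that nuclear receptors bind. Start 1 lies after chr6:115360894-115361143, start 2 after chr6:115362099-115362348 and start 3 after chr6:115421816-115422065.
Pparg start 1: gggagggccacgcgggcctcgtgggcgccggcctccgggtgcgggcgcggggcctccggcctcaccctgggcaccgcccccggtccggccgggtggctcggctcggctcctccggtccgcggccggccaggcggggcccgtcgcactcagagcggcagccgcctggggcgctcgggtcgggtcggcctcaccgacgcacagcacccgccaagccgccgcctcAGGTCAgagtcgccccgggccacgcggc
Pparg start 2: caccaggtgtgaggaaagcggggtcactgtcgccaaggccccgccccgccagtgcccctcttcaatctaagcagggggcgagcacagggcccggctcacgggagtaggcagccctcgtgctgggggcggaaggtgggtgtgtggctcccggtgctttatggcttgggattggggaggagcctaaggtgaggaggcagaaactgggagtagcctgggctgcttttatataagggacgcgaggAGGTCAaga
Pparg start 3: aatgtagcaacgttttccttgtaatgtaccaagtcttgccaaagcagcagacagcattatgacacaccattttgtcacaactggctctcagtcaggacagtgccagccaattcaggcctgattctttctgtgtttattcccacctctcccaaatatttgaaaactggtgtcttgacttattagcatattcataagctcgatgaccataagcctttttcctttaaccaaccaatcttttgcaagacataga
Starts 1 and 2 each held 1 AGGTCA on the plus strand, at -28 to -23 and at -9 to -4, and start 3 held none on either strand. The motif was present in 14% of all windows on either strand. The GC content was 82.4%, 63.6% and 40.8% at starts 1 to 3. Of 13 motifs searched on both strands in 13 windows of 7 of the genes, the response element of the NR4A family (NBRE, AAAGGTCA, which contains that core) was found at start 2 of Rxra, at -50 to -43, and in 1.34% of all windows. A match is a description of the letters and not a measured binding site.

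Compared per kilobase of exon, the receptors spanned a wide range. Rxra stood highest at 35.4 CPM per kb over all libraries, above 90.3% of the genes tested, followed by Nr3c1 (encoding the glucocorticoid receptor) at 19.5 CPM per kb. Rara (retinoic acid receptor alpha) and Ppard (PPAR delta, a sensor of fatty acids) followed at 9.98 and 7.8 CPM per kb, then Esrra (estrogen-related receptor alpha, a regulator of mitochondrial genes) at 4.92, Pparg at 3.59 and Nr4a1 at 3.21. Vdr (vitamin D receptor) stood at 0.13 CPM per kb, above only 1.04% of the genes tested. The order shifted with condition: at 0 h Pparg ranked 4th and Nr4a1 7th, at 2 h of LPS Nr4a1 ranked 4th, and at 24 h of LPS Esrra ranked 3rd, with Pparg at 0.613 and Nr4a1 at 0.313 CPM per kb.

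**Figure D1:**
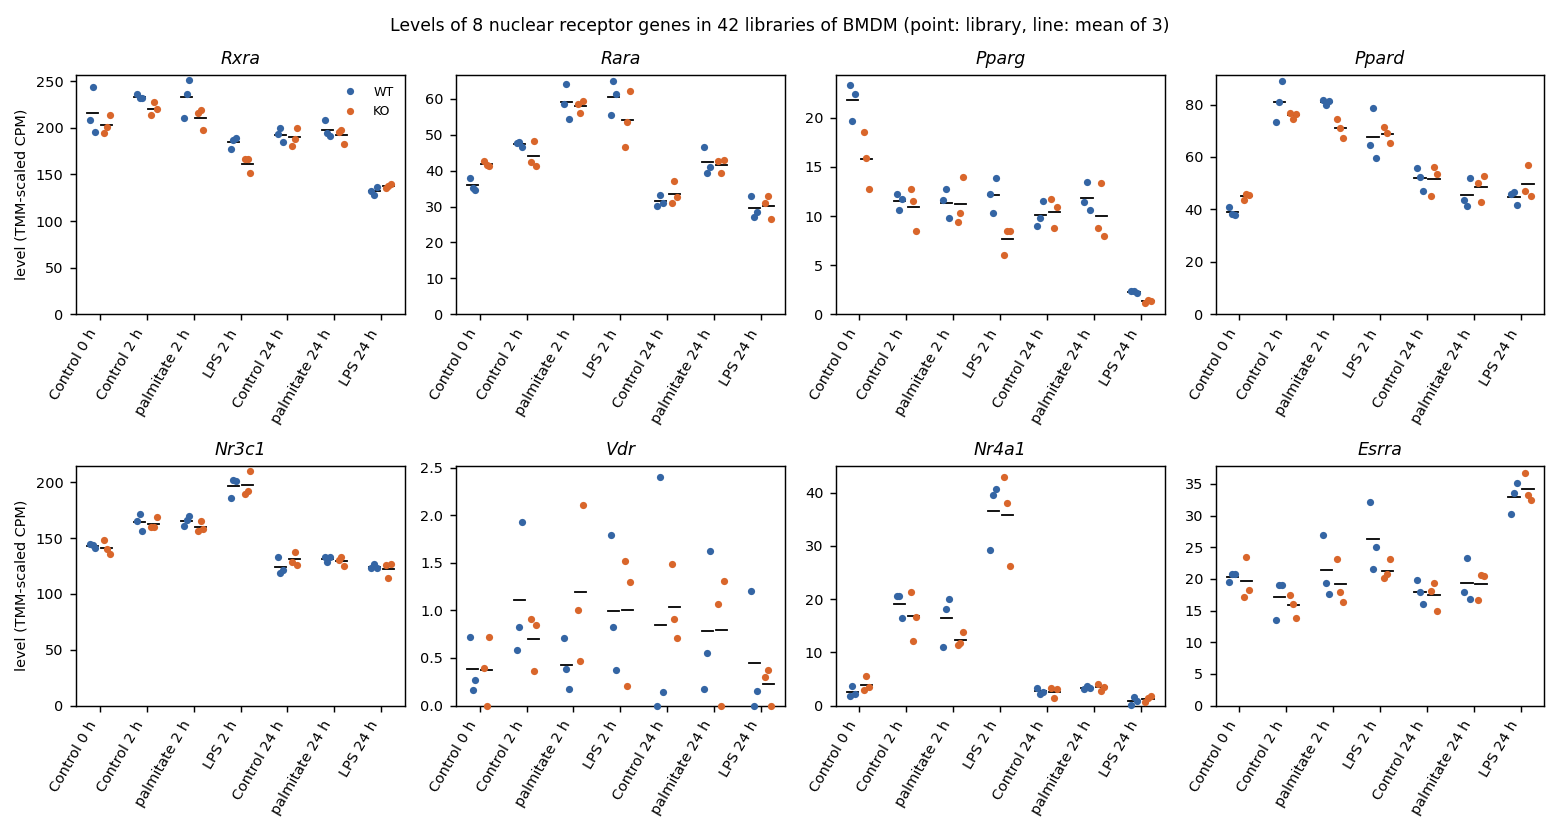
Level of each gene (TMM-scaled CPM, vertical axis from 0) in every library, by condition (horizontal axis), with WT in blue, KO in orange and a line at the mean of the 3 libraries of a group. Nr4a1 peaked at 2 h of LPS (26.2 to 42.9 CPM) and Pparg was lowest at 24 h of LPS (1.19 to 2.40 CPM).

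LPS changed 6 of the 8 genes at 2 h and 4 at 24 h. At 2 h, Nr4a1, Esrra, Rara and Nr3c1 rose and Rxra and Ppard fell, and 34.2% of all genes tested were called in this comparison. At 24 h, Esrra rose and Pparg, Nr4a1 and Rxra fell, and 52.1% of all genes were called. The median log2 fold change of the 8 genes was 0.14 at 2 h and -0.32 at 24 h, beside -0.02 and -0.01 over all genes tested. The libraries treated with LPS did not overlap with Control for 4 of the 8 genes at 2 h and for 3 at 24 h, beside 17% and 31.7% of all genes. Within WT LPS changed 6 of the 8 at 2 h and 4 at 24 h, and within KO 4 and 3. The shares of all genes were 23.1%, 39.5%, 23.9% and 40.9% in the same order. The calls of Ppard and Esrra in WT and of Rara in KO at 2 h were lost in some alternative fits. So was that of Nr4a1 in WT at 24 h. In KO, Nr4a1 at 24 h was called by DESeq2, and Pparg at 2 h without library 3 of KO Control 2 h. The size of the LPS effect differed between 24 h and 2 h for 5 of the 8 genes, beside 46.3% of all genes, and that of palmitate for 0, beside 1.28%. Palmitate changed Rara alone at both times, where 0.542% of all genes were called at 2 h and 2.57% at 24 h. At each time the palmitate and LPS comparisons share their Control libraries. Set directly against palmitate, LPS gave different levels for 3 of the 8 genes at 2 h (35% of all genes) and for 5 at 24 h (51.8%).

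**Figure D2:**
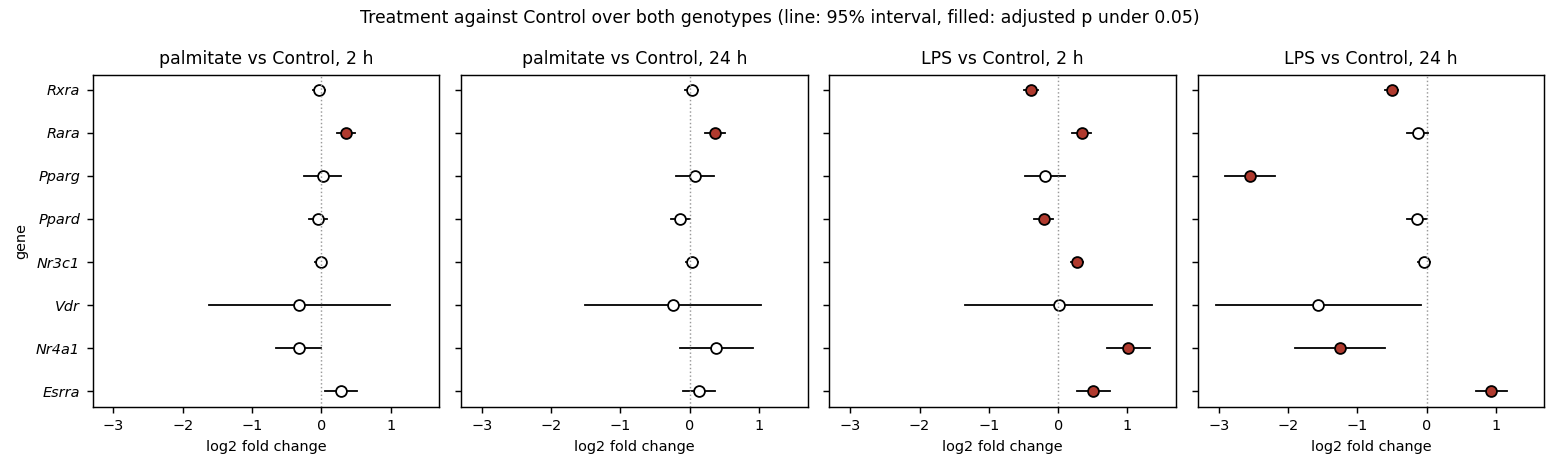
Log2 fold change of each gene (rows) for palmitate or LPS against the Control of the same time, over both genotypes with 6 libraries a side. Lines are 95% intervals and filled points passed an adjusted p under 0.05. Rara was the only filled point under palmitate, at 0.36 and 0.37, and Pparg reached -2.55 at 24 h of LPS.

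Rxra fell under LPS at both times. At 2 h the Control libraries held 236, 232 and 232 CPM in WT and 214, 228 and 220 CPM in KO, and the LPS libraries 177, 187 and 189 CPM in WT and 167, 166 and 152 CPM in KO. All 6 LPS libraries thus lay below all 6 Control libraries. This was a log2 fold change of -0.39 ± 0.05 (SE), with an adjusted p of 2.70e-09. At 24 h the LPS libraries narrowed to 128 to 140 CPM, against 181 to 200 CPM in Control, again with no overlap (log2 fold change -0.50 ± 0.05, adjusted p = 1.08e-12). The size of the LPS effect did not pass the test of a difference between the times (-0.11, 95% interval -0.25 to 0.03). Under palmitate Rxra differed from Control by -0.03 at 2 h (95% interval -0.13 to 0.06) and by 0.03 at 24 h (-0.07 to 0.12), and it was higher under palmitate than under LPS at both times.

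Rara was the receptor that responded to both treatments. At 2 h its level was 47.6, 48.0 and 46.7 CPM in WT Control and 42.5, 48.3 and 41.4 CPM in KO Control. With palmitate it was 58.6, 64.2 and 54.5 CPM in WT and 58.5, 56.0 and 59.4 CPM in KO, so that every palmitate library lay above every Control library. The rise was 1.28-fold (log2 fold change 0.36 ± 0.07, SE, adjusted p = 0.00229). At 24 h Rara held 39.3 to 46.7 CPM under palmitate and 30.3 to 37 CPM in Control, again with no overlap (log2 fold change 0.37 ± 0.07, 1.29-fold, adjusted p = 0.00099). Lack of overlap was found for 0.662% of all genes at 2 h and 2.17% at 24 h. The palmitate effect on Rara was of similar size at both times, with a difference of 0.01 (95% interval -0.18 to 0.20).

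Within a genotype the rise of Rara under palmitate was 0.32 in WT and 0.39 in KO at 2 h, and 0.43 in WT and 0.31 in KO at 24 h, each without overlap of the libraries. Such a lack of overlap was found for 14.9%, 11.2%, 15% and 14.3% of all genes in these 4 comparisons. With 3 libraries a side, only Rara in WT at 24 h was called (adjusted p = 0.0263), beside 0.852% of all genes, and 0 of the 8 receptors in the others, where 0.275%, 0.112% and 0.877% of all genes were called. The call of Rara in WT at 24 h was lost in 3 fits with other settings and when library 1, 2 or 3 of WT Control 24 h or library 1 of WT palmitate 24 h was left out (0.35 to 0.47). The call over both genotypes was kept in every alternative fit that was run for it. LPS raised Rara as well at 2 h, to between 46.7 and 64.9 CPM (log2 fold change 0.34 ± 0.07, adjusted p = 9.26e-05), with some overlap with Control. At 24 h of LPS it held 26.6 to 32.9 CPM, which was not called against Control (-0.13, adjusted p = 0.144) and was below palmitate (-0.50 ± 0.07, adjusted p = 6.95e-08).

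Pparg, whose product drives genes of fatty acid uptake and storage, lost most of its transcript under long LPS. At 24 h the Control libraries held 8.98, 9.77 and 11.5 CPM in WT and 11.7, 8.75 and 10.9 CPM in KO. The LPS libraries held 2.40, 2.32 and 2.14 CPM in WT and 1.19, 1.49 and 1.32 CPM in KO, from 8 to 14 reads each. All 6 LPS libraries lay below all Control libraries. Pparg was thus 5.86-fold lower (log2 fold change -2.55 ± 0.18, SE, adjusted p = 4.77e-17). At 2 h of LPS Pparg had not passed the test (6.07 to 13.9 CPM against 8.48 to 12.7 CPM, log2 fold change -0.19, 95% interval -0.48 to 0.10). The LPS effect differed between 24 h and 2 h by -2.36 ± 0.24 (adjusted p = 8.55e-12). Under palmitate the log2 fold change of Pparg was 0.02 at 2 h (95% interval -0.25 to 0.29) and 0.08 at 24 h (-0.20 to 0.35).

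Ppard moved little with either treatment and much with time. It fell slightly at 2 h of LPS, from 73.2 to 88.9 CPM in Control to 59.6 to 78.7 CPM, with overlap (log2 fold change -0.21 ± 0.07, adjusted p = 0.0171). This call was lost without library 3 of WT Control 2 h (-0.18) or library 3 of WT LPS 2 h (-0.16). At 24 h of LPS its log2 fold change was -0.14 (95% interval -0.28 to 0.01), and under palmitate it was -0.05 at 2 h and -0.13 at 24 h, none of them called. Without library 2 of KO LPS 24 h the value at 24 h of LPS was -0.18 and was called. Ppara, the remaining PPAR gene, had 0 counts in every library, which allows up to 3 counts per library.

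Nr4a1, an immediate early gene, gave the widest range of levels. It held 1.81, 3.63 and 2.12 CPM in WT and 2.94, 5.48 and 3.42 CPM in KO at 0 h. At 2 h of LPS it held 29.3, 39.5 and 40.7 CPM in WT and 42.9, 38.1 and 26.2 CPM in KO. The Control libraries of the same time held 20.5, 20.5 and 16.4 CPM in WT and 21.4, 12.2 and 16.6 CPM in KO, below every LPS library. LPS thus raised further a level that had already risen in Control (log2 fold change 1.01 ± 0.16, 2.02-fold, adjusted p = 6.35e-07). At 24 h Nr4a1 was lower with LPS, at 0.171 to 1.76 CPM against 1.46 to 3.37 CPM, with overlap and with 1 to 12 reads in each LPS library (log2 fold change -1.24 ± 0.33, adjusted p = 0.00133). The reversal between the times was -2.26 ± 0.37 (adjusted p = 9.91e-07). Palmitate gave -0.33 at 2 h (95% interval -0.65 to 0.00) and 0.38 at 24 h (-0.14 to 0.91), and neither was called.

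Nr3c1, encoding the glucocorticoid receptor, rose at 2 h of LPS within a narrow spread. Control held 165, 172 and 156 CPM in WT and 160, 160 and 169 CPM in KO. LPS held 186, 202 and 201 CPM in WT and 190, 192 and 210 CPM in KO, all above Control. Nr3c1 was 1.21-fold higher (log2 fold change 0.27 ± 0.04, adjusted p = 8.18e-07). At 24 h it was -0.04 (95% interval -0.13 to 0.04), and the difference between the times was -0.31 ± 0.06 (adjusted p = 2.92e-05). Palmitate gave -0.01 at 2 h (-0.09 to 0.07) and 0.03 at 24 h (-0.05 to 0.12), the tightest intervals of the 8 genes.

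Esrra rose with LPS at both times. At 24 h it held 30.3, 33.6 and 35.1 CPM in WT and 36.7, 33.2 and 32.5 CPM in KO, against 15.0 to 19.9 CPM in Control, with no overlap (log2 fold change 0.93 ± 0.11, 1.91-fold, adjusted p = 5.90e-10). At 2 h it held 20.1 to 32.2 CPM against 13.5 to 19 CPM, again with no overlap (0.51 ± 0.12, adjusted p = 0.000657). The difference of the effect between the times was 0.43 ± 0.17 (adjusted p = 0.0302), and the call was lost, at 0.38 to 0.40, without library 2 or 3 of WT Control 2 h, 1 of KO Control 2 h, 2 of WT LPS 2 h, 3 of WT Control 24 h or 3 of KO Control 24 h. An exon of Esrra overlaps an exon of Trmt112 on the opposite strand, and the use of strand in counting is not given in the sources used here. Trmt112 rose by 0.56 at 2 h of LPS and was not called at 24 h (0.12, adjusted p = 0.39), and its part in the counts of Esrra was not tested.

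Vdr was near the floor of detection. It had 0 to 14 counts per library, with at most 3 counts in 21 of the 42 libraries and 0 in 5 of them. Its level lay between 0 and 2.40 CPM, the range of every condition overlapped with that of the next, and no comparison called it. The lowest adjusted p under a treatment was 0.0782, at 24 h of LPS, and it turned into a call without library 1 or 3 of WT Control 24 h (log2 fold changes -1.77 and -1.85) or library 1 of WT LPS 24 h (-2.65). At this depth no statement on the direction of Vdr was possible.

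Control cells changed between the times as well, without palmitate or LPS. From 0 to 2 h, 5 of the 8 genes were called, beside 16.7% of all genes. Nr4a1 rose by 2.49 ± 0.20 on the log2 scale (5.6-fold, adjusted p = 2.32e-14) and Ppard by 0.91 ± 0.07 (1.88-fold, adjusted p = 4.36e-15). Ppard went from 40.9, 38.2 and 37.8 CPM in WT and 43.6, 45.7 and 45.5 CPM in KO to 73.2, 81.1 and 88.9 CPM in WT and 76.9, 74.3 and 76.3 CPM in KO, with no overlap. Rara rose by 0.24 (0.21 and not called without library 2 of KO Control 2 h) and Nr3c1 by 0.20, while Pparg fell from 12.8 to 23.3 CPM to 8.48 to 12.7 CPM (log2 fold change -0.73 ± 0.13, adjusted p = 2.25e-05). Tnf also rose over these 2 h in Control, by 2.10, as did the other genes of the NR4A family, Nr4a2 by 2.84 and Nr4a3 by 3.57.

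From 2 to 24 h in Control, 5 of the 8 genes fell and none rose, beside 18.3% of all genes called and 10.3% called lower. Nr4a1 fell to 1.46 to 3.37 CPM (log2 fold change -2.77 ± 0.21, adjusted p = 5.76e-15), Ppard by 0.60, Rara by 0.49, Nr3c1 by 0.36 and Rxra by 0.25. Between 0 and 24 h, 4 of the 8 were called, beside 16.5% of all genes. Pparg remained below its level of 0 h (-0.84 ± 0.13, adjusted p = 3.22e-06), Rara and Nr3c1 were slightly lower (-0.25 and -0.16) and Ppard was slightly higher (0.30). Without the filter on low counts, the calls of Rara and Nr3c1 over these 24 h were lost and 2 remained. The 3 comparisons of time share Control libraries.

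For the gene lists that follow, 34.2% of all genes tested were called at 2 h of LPS, 25.6% were higher and 26.5% lower at 24 h of LPS, and 0.542% and 2.57% were called at 2 and 24 h of palmitate. A wider list held 33 other nuclear receptor genes, of which 11 were tested and 15 never exceeded 3 counts. At 2 h of LPS 2 of the 11 rose and 3 fell, and at 24 h 1 rose and 2 fell, with medians of -0.03 and -0.10. Nr4a3 rose at 2 h from 11.3 to 34.7 CPM (log2 fold change 1.67, adjusted p = 1.49e-10) and Nr4a2 from 7.82 to 12.3 CPM (0.66, adjusted p = 0.026), so all 3 genes of the NR4A family were higher. Nr2c2, an orphan receptor, fell by 0.41 at 2 h and by 0.29 at 24 h. Esr1, an estrogen receptor gene, fell by 0.52 at 2 h and rose by 0.67 at 24 h. Thrb, a thyroid hormone receptor gene, fell by 1.92 at 24 h from 1.47 to 0.399 CPM. It had 0 to 17 counts per library, so this value rests on few reads near the floor. Under palmitate none of the 11 was called at either time.

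Among the LXR and clock receptors, of which 5 of 7 genes were tested, LPS raised 2 and lowered 1 at 2 h and raised 1 and lowered 2 at 24 h. Nr1h3, encoding LXR alpha, rose at 24 h from 37.4 to 169 CPM (log2 fold change 2.18, adjusted p = 3.5e-27), and Rora, a receptor of the clock, fell from 31.3 to 9.14 CPM (-1.77).

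The coregulator lists named 14 coactivator and 10 corepressor genes, of which 12 and 9 were tested (Prmt1 was not analysed here). LPS raised 4 and lowered 2 coactivators at 2 h, and raised 5 and lowered 1 at 24 h, with medians of 0.04 and 0.02. Ppargc1b, encoding the coactivator PGC-1 beta that works with ERR alpha, rose from 15.9 to 31.8 CPM at 24 h (log2 fold change 1.00, adjusted p = 2.2e-09). Ppargc1a, its close relative, had at most 1 count in any library. Of the histone acetyltransferases Crebbp and Ep300, the former rose by 0.27 and the latter fell by 0.35 at 2 h of LPS. Nrip1, encoding the corepressor RIP140, rose at 2 h from 54.6 to 100 CPM (0.88) and was lower at 24 h (-0.21). Palmitate called 0 of these 21 genes at either time.

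The list of PPAR targets, genes of lipid storage and fatty acid oxidation, had 21 genes tested. Palmitate raised 3 of them at 2 h and 9 at 24 h and lowered 0, with medians of 0.10 and 0.25, beside 0.542% and 2.57% of all genes called. Angptl4, an inhibitor of lipoprotein lipase, rose from 2.10 to 20.4 CPM at 2 h (log2 fold change 3.28) and from 3.46 to 36 CPM at 24 h (3.40). Plin2 rose from 209 to 840 CPM at 24 h, and Cpt1a, which admits fatty acids into mitochondria, rose by 0.95. Control itself was lower at 2 h than at 0 h for Angptl4 (14.1 to 2.10 CPM), Plin2 (424 to 257 CPM) and Cpt1a (168 to 141 CPM). These rises are thus against a lowered Control, and palmitate was not tested against 0 h. LPS at 2 h raised 3 of the 21 and lowered 2, with a median of 0.01, beside 34.2% of all genes called. LPS at 24 h raised 5 and lowered 11, with a median of -0.14, beside 25.6% of all genes higher and 26.5% lower. Lpl, encoding lipoprotein lipase, fell from 3435 to 1230 CPM (-1.48, adjusted p = 3.29e-31), Cd36, a fatty acid receptor, from 1693 to 841 CPM (-1.02), and Fabp4, a fatty acid carrier, by 1.19. Plin2 went the other way and rose by 0.66 under LPS. Pparg itself was lower under LPS and not called under palmitate.

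**Figure D3:**
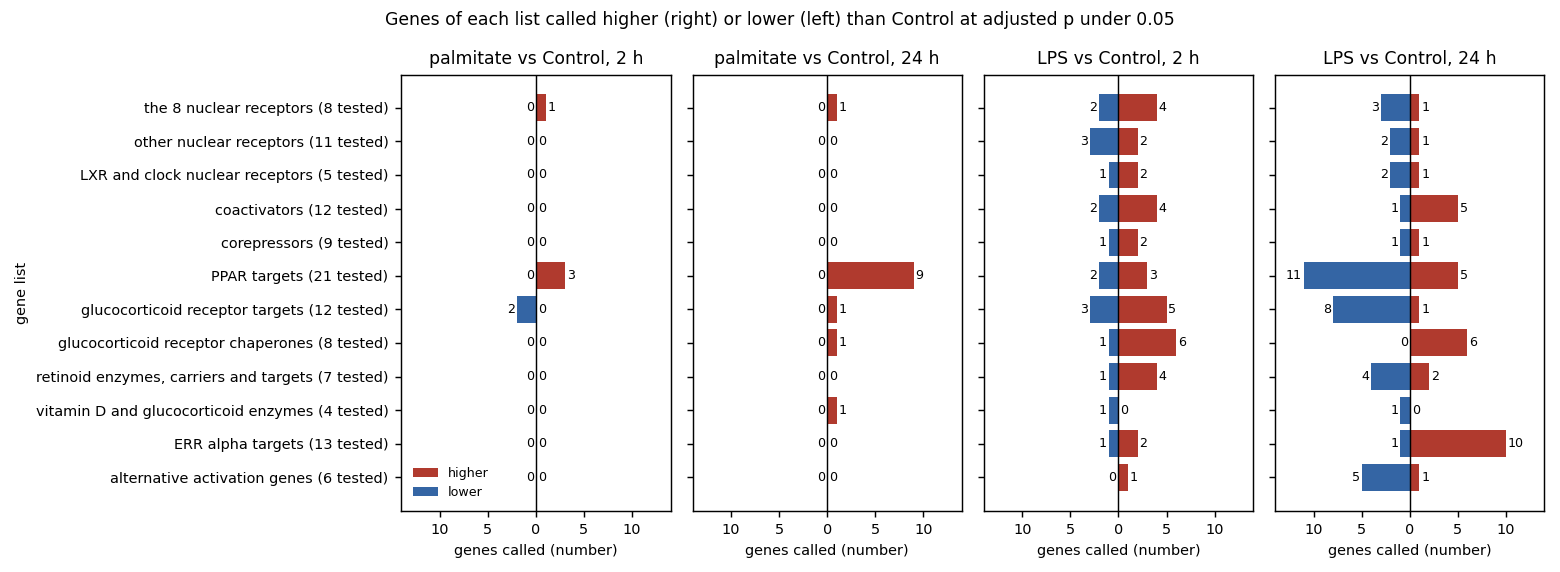
Number of genes called higher (red, to the right) or lower (blue, to the left) than Control in each gene list (rows, with the number tested), for palmitate and LPS at 2 and 24 h over both genotypes. PPAR targets had 9 higher and 0 lower at 24 h of palmitate and 5 higher and 11 lower at 24 h of LPS, and ERR alpha targets had 10 higher and 1 lower at 24 h of LPS.

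Of 9 alternative activation genes, 6 were tested, and at 24 h of LPS 1 rose and 5 fell (median -1.38), beside 25.6% of all genes higher and 26.5% lower. Mrc1, the mannose receptor gene, fell from 247 to 51.5 CPM (log2 fold change -2.26, adjusted p = 4.6e-28) and Chil3 from 8.66 to 3.26 CPM. Arg1 (arginase) rose by 2.68, but only from 0.382 to 2.31 CPM. It had 0 to 28 counts per library and was near the floor in Control. At 2 h of LPS 1 of the 6, Irf4, a transcription factor gene, rose by 1.63. None of the 6 was called under palmitate. The summed level of the granulocyte precursor markers was also lower at 24 h of LPS than in Control. These markers summed to 30.6 to 33 CPM against 50.8 to 61 CPM in WT and to 42 to 63.1 CPM against 127 to 198 CPM in KO. Ltf (-1.92) and S100a9 (-1.59) fell, while S100a8 held 12.3 CPM with LPS and 13.4 CPM in Control. Camp, at few counts, held 0.989 and 1.05 CPM. Of the dendritic cell markers, Flt3 (-1.23, from 1.89 to 0.747 CPM) and Zbtb46 (-1.53, from 1.75 to 0.663 CPM) fell, both at few counts. Ccr7 went the other way, from 2.75 to 4.51 CPM. The dendritic cell markers summed to 3.83 to 9.41 CPM with LPS against 2.81 to 5.49 CPM in WT. In KO they summed to 4.62 to 7.1 CPM against 8.02 to 10.4 CPM. The part of both cell types in the result was not tested.

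Glucocorticoid receptor targets split at 2 h of LPS and mostly fell at 24 h. At 2 h 5 of 12 rose and 3 fell (median 0.00), beside 34.2% of all genes called. Errfi1, a feedback inhibitor of EGF receptor signalling, rose from 14.8 to 134 CPM (log2 fold change 3.18), and Dusp1, a phosphatase of MAP kinases, rose from 54.5 to 233 CPM (2.09). Tsc22d3, encoding the glucocorticoid-induced leucine zipper, fell from 34.3 to 12.3 CPM (-1.45) and Per1, also a clock gene, from 32.5 to 16.2 CPM (-1.03). At 24 h 8 of the 12 were lower and 1, Sgk1, was higher (median -0.81), beside 26.5% of all genes lower and 25.6% higher. Among those that fell were Fkbp5 (-1.04) and Klf9, from 11.4 to 2.44 CPM. Palmitate lowered Mt1 and Mt2, both metallothionein genes, at 2 h and raised Anxa1 at 24 h. Of 8 genes of the chaperones that hold the glucocorticoid receptor, LPS raised 6 and lowered 1 at 2 h, and raised 6 at 24 h (median 0.24 at both times), with Stip1, a co-chaperone gene, rising by 0.75 and 0.63.

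Of 15 genes of retinoid enzymes, carriers and targets, 7 passed the filter and were tested. At 2 h of LPS 4 rose and 1 fell (median 0.34), and at 24 h 2 rose and 4 fell (median -0.56), beside 34.2% and 52.1% of all genes called. Cd38, an ectoenzyme gene responsive to retinoic acid, rose from 8.04 to 40.6 CPM at 2 h and from 10.3 to 135 CPM at 24 h, and Tgm2, encoding a transglutaminase, rose by 0.58 and 0.42. Dhrs3, encoding a retinaldehyde reductase, fell by 0.32 and 0.56. None of the 7 was called under palmitate. Cyp26a1 and Cyp26b1, also in the list, had at most 1 and 7 counts in any library and were not tested. Whether the activity of the retinoic acid receptor changed was not tested. The vitamin D and glucocorticoid enzymes had 4 of 7 genes tested, and LPS lowered Cyp27a1, encoding a sterol hydroxylase, by 0.47 and 0.43, while palmitate at 24 h raised H6pd by 0.32. Cyp24a1, the usual target of the vitamin D receptor, and Cyp27b1 had at most 1 count in any library.

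ERR alpha targets, genes of the respiratory chain and the citric acid cycle, rose late with LPS. Of 13 tested, 10 were higher and 1 lower at 24 h (median 0.23), beside 25.6% of all genes higher and 26.5% lower. Atp5b, a subunit of ATP synthase, rose from 280 to 444 CPM (log2 fold change 0.67, adjusted p = 4.95e-18), Sdhb, a subunit of succinate dehydrogenase, from 90.2 to 148 CPM (0.72), and Cycs, cytochrome c, by 0.90. Acadm, which is also a PPAR target, fell by 0.37. At 2 h 2 rose and 1 fell, and under palmitate none was called.

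Genotype gave no call for any of the 8 genes. Over 7 conditions, 0 of 56 tests of KO against WT and 0 of 32 interactions of genotype with treatment were called by edgeR, and 0 of each by DESeq2. At an unadjusted p under 0.05 there were 7 and 0. The share of all genes is not given here for the interactions, for DESeq2 or for unadjusted p. Whether these counts differ from those of other genes can therefore not be said. Over all genes, 12.5% were called between the genotypes in Control 0 h, 0.49% in Control 2 h, 0.146% in palmitate 2 h, 0.465% in LPS 2 h, 0.12% in Control 24 h, 0.0688% in palmitate 24 h and 0.146% in LPS 24 h.

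By adjusted p, Pparg came nearest to a difference. At 0 h its level was 23.3, 19.7 and 22.4 CPM in WT and 18.6, 15.9 and 12.8 CPM in KO, with no overlap, as for 28% of all genes in that comparison (log2 fold change -0.47 ± 0.18, 95% interval -0.81 to -0.12, adjusted p = 0.0714). At 2 h of LPS it was 12.2, 10.3 and 13.9 CPM in WT and 6.07, 8.51 and 8.43 CPM in KO (-0.63 ± 0.22, adjusted p = 0.208), and at 24 h of LPS the KO libraries again lay below WT (-0.77 ± 0.35, adjusted p = 0.49). Lack of overlap was found for 12.8% and 13.4% of all genes in these comparisons. In the Control groups of 2 and 24 h the differences of Pparg were -0.08 and 0.03, with overlap. The difference of the LPS effect between genotypes was -0.54 at 2 h (adjusted p = 0.717) and -0.80 at 24 h (adjusted p = 0.93), neither called nor under 0.05 before adjustment. Other receptors also lacked overlap without a call. At 0 h Ppard held 43.6 to 45.7 CPM in KO and 37.8 to 40.9 CPM in WT. Rara held 41.4 to 42.6 CPM in KO and 34.7 to 38 CPM in WT. At 2 h of LPS Rxra was lower in KO, at 152 to 167 CPM against 177 to 189 CPM.

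The summed level of 7 granulocyte precursor markers was higher in KO, at 72.9 to 81.3 CPM against 47.2 to 54.4 CPM at 0 h and 118 to 203 CPM against 45.4 to 65.9 CPM at 2 h of LPS. It was also higher in KO at 64.5 to 125 CPM against 19.3 to 32.9 CPM in Control 2 h and 127 to 198 CPM against 50.8 to 61 CPM in Control 24 h. In LPS 24 h it stood at 42 to 63.1 CPM against 30.6 to 33 CPM. The part of these cells in the genotype values was not tested. The 4 fibroblast markers summed to 37.8 to 63.3 CPM in KO and 0.132 to 0.905 CPM in WT at 0 h, and to 0.759 to 132 CPM in KO and 0 to 0.371 CPM in WT at 2 h of LPS. Of these markers, Dcn and Pdgfra each had 0 to 5 counts per library, so high sums came from Col1a1 and Col1a2. Whether fibroblasts were present was not tested. The same 4 markers summed to 63.5 to 102 CPM in KO and 1.16 to 52.1 CPM in WT in Control 2 h. The sums were 36 to 125 CPM and 0.514 to 40.6 CPM in Control 24 h, and 0.56 to 150 CPM and 0.171 to 1.22 CPM in LPS 24 h. Over the series 17 libraries held at least 10 CPM of fibroblast markers, 14 of them KO. With the 25 libraries under that limit, an analysis chosen after the data were seen, the same genotype difference of Pparg was -0.70 ± 0.27 at 2 h of LPS (adjusted p = 0.308) and -0.61 ± 0.54 at 24 h (adjusted p = 0.907), neither called. At 24 h 1 KO library was left and was assumed to vary like the other groups, and no KO library of Control 0 h was left. In the same fit LPS in WT gave -2.03 for Pparg and 0.81 for Esrra at 24 h, and 1.00 for Nr4a1 at 2 h, all called. The calls in WT of Ppard at 2 h of LPS (-0.27, adjusted p = 0.12) and of Rara at 24 h of palmitate (0.41, adjusted p = 0.284) were lost. In bulk RNA, fewer cells of a type and less RNA per cell cannot be told apart.

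**Figure D4:**
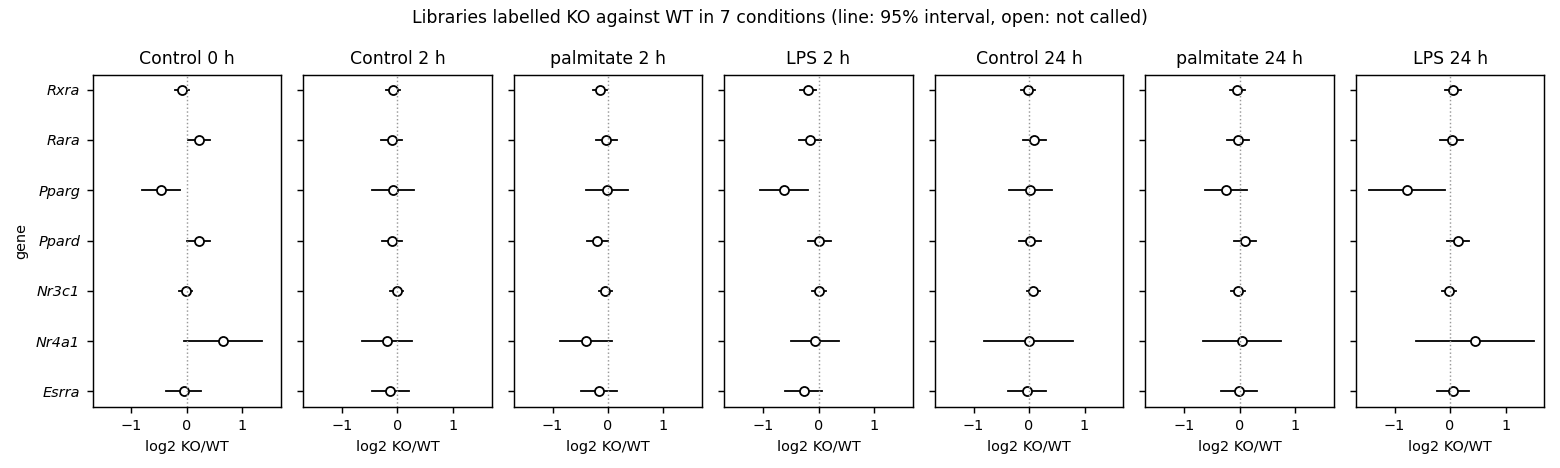
Log2 ratio of KO to WT for 7 of the 8 genes (rows) in each condition (panels), with 95% intervals from 3 libraries a group. Vdr is left out because of its low counts. Every point is open, meaning not called, and Pparg reached -0.77 at 24 h of LPS.

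For each receptor the genes with the most similar profile were found by Pearson's r of mean log2 CPM over the 14 groups. All genes were measured in the same libraries, with the same depths and treatments, so the coefficients only describe these data. Nr4a1 ran with Aff4 (r = 0.982) and Pdgfa (0.979), Nr3c1 with Runx1 (0.979) and Jund (0.974), and Pparg with Zcchc24 (0.985) and Mtss1 (0.981). Mtss1 held 189 CPM at 0 h and 53 CPM at 24 h of LPS. For Rxra the nearest were Cerk (0.968) and Pcyt1a (0.962), for Ppard Tent5c (0.965) and Elf4 (0.964), for Rara Jmjd1c (0.964) and Cytip (0.934), and for Esrra Trim25 (0.957) and Mrpl52 (0.956). The value for Vdr (0.852 with Dock6) rests on few counts. Among the receptors themselves, Nr4a1 and Nr3c1 were the most alike (r = 0.954), followed by Nr4a1 and Rara (0.903). Esrra ran opposite to Rxra (-0.831) and to Pparg (-0.784).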

How the data were processed

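Total RNA was made into stranded, ribodepleted libraries and sequenced in paired ends. Raw counts per gene, without normalisation, were deposited by the authors for the 42 libraries. The submitters' processing notes name fastp 0.19.11, STAR 2.7.3a and mm10. The annotation release and the use of strand in counting are not given in the sources used here, so genes that overlap are uncertain. The study tested genotypes with DESeq2. Columns name a group and not a replicate. Of 37310 identifiers, 32620 matched a symbol. No pair of libraries of a group matched within sampling noise. Counts were analysed with edgeR 4.0.16 (R 4.3.3). The filterByExpr function kept 11624 genes, which were TMM-scaled and fitted with 1 mean per group over all libraries, sharing 1 estimate of the spread. Each contrast had a quasi-likelihood test, its p-values were adjusted by Benjamini-Hochberg over every gene tested, and 0.05 was the threshold. Intervals are normal approximations from the SE, narrower than that test, and decide no call. Treatment and time comparisons average both genotypes unless one is named. The fits were tested on simulated data. Alternatives were RLE size factors, all genes with at least 1 count, only the libraries compared, DESeq2 1.42.0, leaving out each library in turn, the threshold of the study for genotypes and, added after the data were seen, only libraries low in fibroblast markers. The 8 genes, the gene lists and the cell type markers were chosen with earlier results of these data known. The rule names all 8 genes in every comparison, of which values are given where a result turns on them and counts otherwise, with the 2 most similar genes of each by Pearson's r among genes of at least 1 CPM. The other gene that this rule chose for Vdr is not reported here. From each list at most 2 genes per direction in each treatment comparison were named, taking called genes averaging 1 CPM or more in order of adjusted p. Cpt1a, Fabp4, Cycs, Arg1, Fkbp5, Ppara, Ppargc1a, Cyp24a1, Cyp27b1, and values of Plin2, Nr4a2 and Nr4a3 outside that rule, were added after their values were seen. Promoter sequences are from RefSeq on GRCm38.p6, with 7 of the genes shown or searched and Nr3c1 left out. Floors of 3 counts cover counting error only.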

Additional observations from a re-analysis of the deposited data

Results flagged for a closer look

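For 5 of the 8 genes the LPS effect over both genotypes differed between 24 h and 2 h by its own test in edgeR. This was the case for 46.3% of all genes tested, and the 2 effects use separate Control libraries. On the log2 scale the difference (24 h minus 2 h) was -2.36 for Pparg, which had not passed the test at 2 h and was lower at 24 h. It was -2.26 for Nr4a1, which was higher at 2 h and lower at 24 h. For Rara it was -0.47 and for Nr3c1 -0.31, both higher at 2 h and not called at 24 h. It was 0.43 for Esrra, which was higher at both times. The palmitate effect gave 0 such calls in edgeR, with 1 of the 8 genes at an unadjusted p under 0.05 (Nr4a1, 0.71) and 0 by DESeq2.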

How the results depend on the processing

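No paired analysis was possible because the columns of the table carry no replicate numbers. Counts of called receptors changed by over 1.5 times in 3 of 30 comparisons. For Control 24 h against 0 h the count went from 4 to 2 with all genes of at least 1 count, where more genes were tested. For palmitate 2 h in KO it went from 0 to 1 (Rara) with DESeq2. For palmitate 24 h in WT it went from 1 (Rara) to 0 with all genes of at least 1 count, with only the libraries compared and with only libraries under 10 CPM of fibroblast markers, and ranged from 0 to 1 when single libraries were left out (any library of WT Control 24 h or library 1 of WT palmitate 24 h). Of 240 results of single receptors 57 were called, and 173 were not called in any fit. No direction of a called result was reversed. Low counts limit Vdr. Leaving out library 1 of WT LPS 24 h, with 1 read of Nr4a1, took the call of Nr4a1 in WT (-1.01). The cause of these changes was not tested.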
